A study of Homo sapiens with 6 samples.

Results

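The tetraspanins were examined in MDA-MB-231, a basal breast cancer line with mesenchymal traits, with and without a lentivirus carrying GATA3. All cells had been transduced and sorted for green fluorescence. The control cells carried enhanced green fluorescent protein alone (GFP control, 3 arrays), and the other cells carried GATA3 together with that protein (3 arrays labelled GATA3). Both were grown with serum, and RNA was collected 2 days after seeding. The members were the 33 human genes of the tetraspanin superfamily. They were found as probe sets whose single gene symbol in the platform annotation was that of a member. This gave 60 probe sets for 32 of the 33 genes, among 19775 genes named in this way on the array. TSPAN19 had no probe set named for it alone. A probe set was tested where it read over 4 on the log2 scale, taken as the detection level, in at least 3 of the 6 arrays. By that rule 30 probe sets of 19 members were tested and 13 members were not.

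Tetraspanins are small proteins that cross the membrane several times and gather integrins, proteases, growth factor precursors and receptors beside them into patches of the cell surface. Many of them are also abundant in endosomes and in the vesicles that cells release. In epithelial tumours CD82 is known as a suppressor of metastasis. CD151 is known as the partner of laminin-binding integrins, and CD9, CD63 and CD81 as standard markers of extracellular vesicles. GATA3 is a transcription factor of luminal mammary cells and binds DNA at the letters GATA.

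The labels do not say that the 3 arrays of a group came from separate cultures, so the p-values reflect only array-to-array spread, possibly technical. GATA3 itself read lower in the arrays labelled for it. Its brightest probe set (209604_s_at) read 9.37, 9.35 and 9.45 in the GFP control and 7.93, 7.94 and 7.32 in the arrays labelled GATA3, a log2 change of -1.66 (adjusted p 0.00238). Another tested probe set of the gene (209602_s_at) was over the detection level in the GFP control alone, so it had to differ; it was lower by at least 1.66-fold. These readings go against the label, and whether the probes match the introduced sequence was not tested. All directions below rest on these labels and compare the arrays labelled GATA3 with the GFP control. The array labelled GATA3 replicate 3 stood apart from replicates 1 and 2 (r of 0.984 to 0.986 with them, against 0.997 between them). It alone carries another date in its raw-file name. Calls of members, and of partners by their brightest probe set, that changed without it are therefore also given. Of 7 markers of this line, VIM, CD44, KRT18, KRT8, CAV1, AXL and MSN, all were measured. PGR lay under the detection level on every array. ESR1 read 4.02 ± 0.00 and 4.16 ± 0.25 (SD, n = 3), barely over it. All arrays but the one labelled GATA3 replicate 3 held the same ESR1 value, which need not be signal. ERBB2 and EPCAM, listed as low in this line, read 9.56 and 10.97 in the GFP control. By their brightest probe sets KRT8 and KRT18 rose by 0.60 and 0.52 (adjusted p 0.00908 and 0.000503). VIM and MSN changed by -0.32 and -0.24 (adjusted p 0.0158 and 0.0342). AXL (0.43, adjusted p 0.459), CAV1 and CD44 did not pass by theirs. That of AXL read 12.78, 13.05 and 14.28 in the arrays labelled GATA3, where replicate 3 stood apart. Dimmer probe sets of AXL (202685_s_at, -0.43, adjusted p 0.00577) and CAV1 (203065_s_at, -0.28, adjusted p 0.00614) were called lower. A dimmer CD44 probe set (1565868_at, -1.78, adjusted p 0.0324) was also lower, and the other tested ones of CD44 did not pass. Of 5 fibroblast markers 2 were measured, COL1A1 and PDGFRB, and neither passed by its brightest probe set. The list summed to 193 to 200.2 on the linear scale in the GFP control and 191 to 228 in the arrays labelled GATA3. A dimmer COL1A1 probe set (1556499_s_at) went from a mean of 4.07 to 6.94, a log2 change of 2.87. It was over the detection level on 2 of the 3 control arrays. The arrays labelled GATA3 met the filter by themselves, so this is a description and no p is given. The part of these shifts in the results below was not tested.

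Of the 19 measured tetraspanins, 6 rose, 3 fell and 10 missed the threshold (limma, adjusted p under 0.05 over all tested probe sets). That is 47.4% of measured members, beside 29.3% of all 10814 measured genes. Rises made up 14.8% and falls 14.5% of all genes. The genes that rose were TSPAN13, TSPAN1, TSPAN14, TSPAN6, CD9 and TSPAN5, and those that fell were TSPAN12, CD82 and CD81. At least 2-fold changes were seen in 5 of the 19, TSPAN13, TSPAN1 and TSPAN14 upward and TSPAN12 and CD82 downward, where 7.28% of all genes were called and changed that much. The median log2 change was -0.01 for the measured members and -0.02 for all genes, and the members went both ways. In RNA from a whole culture, fewer cells that express a gene and less RNA per cell cannot be told apart. Where several probe sets of a gene were tested, the brightest on average stands for it. TSPAN1 was over the detection level on all arrays labelled GATA3 but on 1 control array, so the former alone met the filter. The other 18 were over it on all 6 arrays, and of these 5 rose and 3 fell when only such probe sets were tested. The number of rising members was 3 without the array labelled GATA3 replicate 1, and again 3 without replicate 2.

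**Figure D1:**
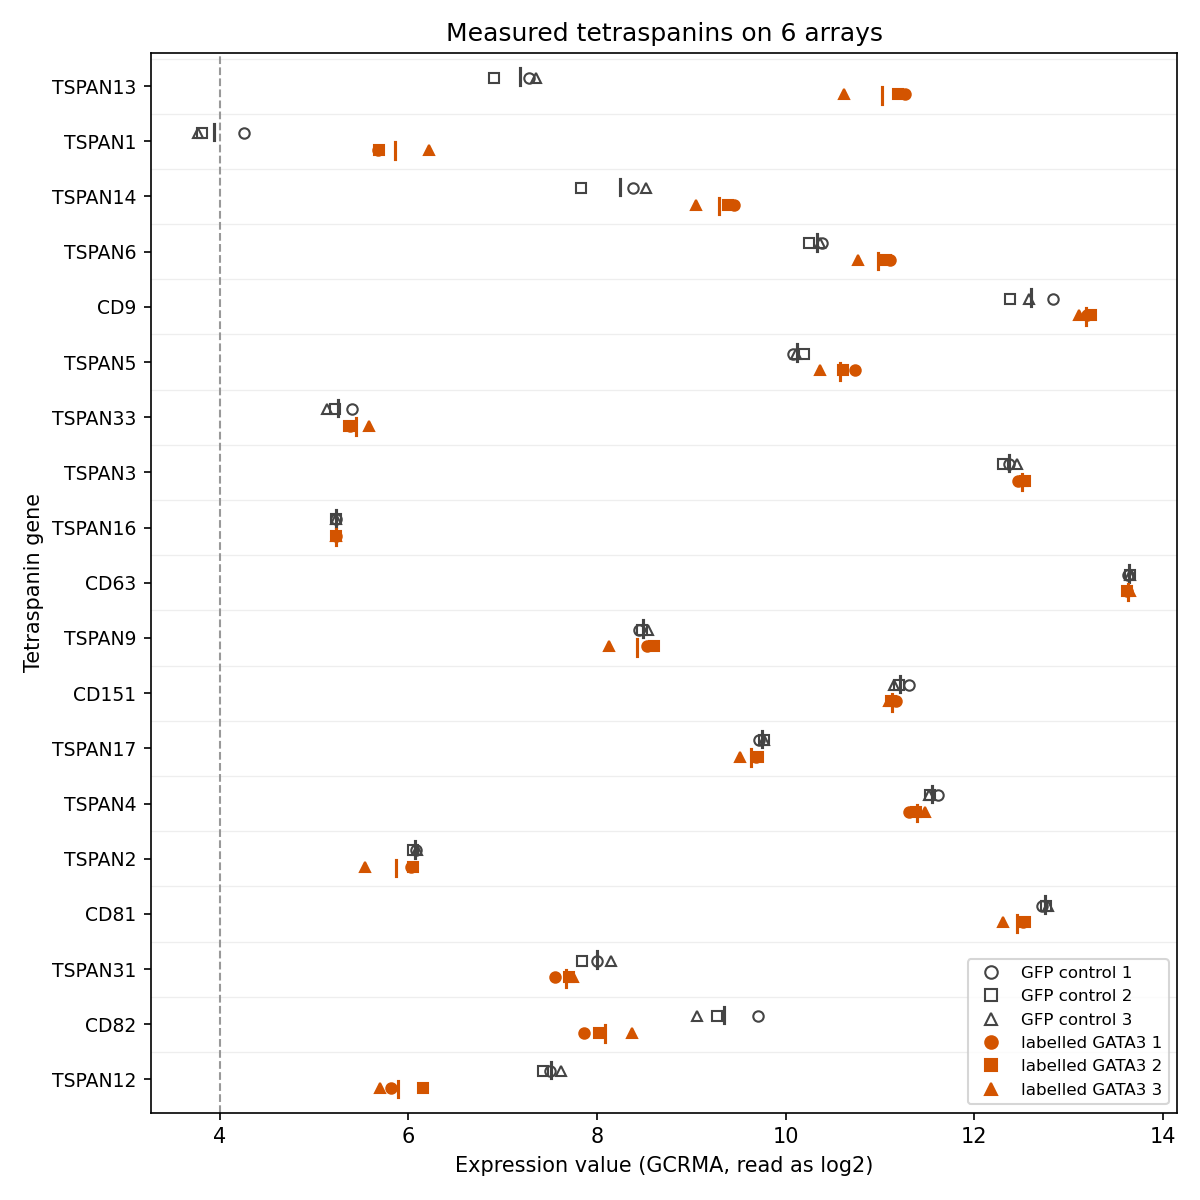
Expression value of the 19 measured tetraspanins on each array, on the log2 scale (x axis), with 1 probe set a gene and genes ordered by their log2 change (y axis). Open grey symbols are the 3 GFP control arrays, filled orange symbols the 3 arrays labelled GATA3, short bars the group means and the dashed line the detection level of 4. TSPAN13 is far to the right in the arrays labelled GATA3 (10.62 to 11.27 against 6.91 to 7.36), TSPAN12 to the left, and CD63 overlaps.

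The start regions of the members with the largest log2 changes are shown because GATA3 is the factor on the label. They are the 250 bases before the annotated gene start, from RefSeq on GRCh38.p14, for TSPAN13 (chr7:16753505-16753754, plus strand), TSPAN1 (chr1:46174837-46175086, plus strand) and TSPAN12 (chr7:120858145-120858394, minus strand). Each is given 5′ to 3′ along the gene, with GATA, or TATC where GATA is on the opposite strand, in capitals.
TSPAN13: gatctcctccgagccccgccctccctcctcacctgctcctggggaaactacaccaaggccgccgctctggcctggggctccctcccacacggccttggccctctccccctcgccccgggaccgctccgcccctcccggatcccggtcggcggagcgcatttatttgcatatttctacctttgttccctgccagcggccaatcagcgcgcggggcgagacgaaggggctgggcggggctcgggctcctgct
TSPAN1: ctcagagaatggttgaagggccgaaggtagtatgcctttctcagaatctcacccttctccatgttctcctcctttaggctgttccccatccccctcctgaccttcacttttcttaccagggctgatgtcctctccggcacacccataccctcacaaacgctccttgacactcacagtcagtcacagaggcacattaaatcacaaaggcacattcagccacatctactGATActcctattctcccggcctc
TSPAN12: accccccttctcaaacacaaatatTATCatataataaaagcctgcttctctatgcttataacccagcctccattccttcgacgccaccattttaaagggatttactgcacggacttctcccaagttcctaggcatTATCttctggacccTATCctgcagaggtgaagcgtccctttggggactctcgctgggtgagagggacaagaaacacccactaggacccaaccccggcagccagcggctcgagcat
TSPAN13, which rose most, has no match in this window. TSPAN1, which met the filter through the arrays labelled GATA3 alone, has 1 match, 19 bases before the start. TSPAN12, which fell, has 3, all on the opposite strand. A promoter was listed for 25 of the 33 members. Of these, 14 (56.0%) hold GATA on either strand, against 45.6% of all 35116 promoters of that length. The letters occurred in 3 of 6 members that rose, in both listed members that fell in 4 of 7 that did not pass and in 5 of 10 that were not tested. A longer form, with A or T before GATA and A or G after it, searched on both strands, was in 4 of the 25 members and in 22.3% of all promoters. Matches are described only, and none is shown to be a binding site.

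The group listed as epithelial and tumour-associated also held TSPAN2 and TSPAN16, which are not known mainly from there. Of its 5 measured members, 2 rose, 1 fell and these 2 did not pass. That is 60% called, beside 29.3% of all genes. The share counts TSPAN1, which met the filter through the arrays labelled GATA3 alone. The other 4 were over the detection level on all arrays. TSPAN13, a tetraspanin studied in breast cancer cells, had the largest change of the family. Its probe set (217979_at) read 7.28, 6.91 and 7.36 in the GFP control and 11.27, 11.19 and 10.62 in the arrays labelled GATA3. All 3 arrays labelled GATA3 were over every control array, and the lowest of them was replicate 3. The log2 change was 3.84 (SE 0.21, 95% interval 3.31 to 4.37), which is 14.4-fold higher with an adjusted p of 0.000202. With any 1 array left out it was 3.71 to 4.05, and the adjusted p stayed at or under 0.00274.

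TSPAN1, an epithelial tetraspanin raised in several carcinomas, came up from around the detection level. It read 4.26, 3.81 and 3.76 in the GFP control and 5.67, 5.68 and 6.22 in the arrays labelled GATA3 (209114_at). The groups did not overlap, and replicate 3 was here the highest of its group. The log2 change was 1.92 (SE 0.21, 3.77-fold). The fold is uncertain, since 2 of the 3 control arrays were under the detection level. The arrays labelled GATA3 met the filter by themselves, so the values are a description and the p is not given in the text.

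TSPAN12, which strengthens norrin signalling through the receptor FZD4, fell by both probe sets that were over the detection level on all arrays. The brightest (219274_at) read 7.50, 7.43 and 7.62 in the GFP control and 5.81, 6.15 and 5.70 in the arrays labelled GATA3. Every array labelled GATA3 lay under every control array. The log2 change came to -1.63 (SE 0.14, 3.09-fold lower, adjusted p 0.000959). Probe set 230625_s_at changed by -0.82 (adjusted p 0.00853). Probe set 230626_at was over the detection level in the GFP control arrays alone, so it had to differ; it was at least 1.50-fold lower. The calls of 219274_at and 230625_s_at held with any 1 array left out. FZD4 and its co-receptor LRP5, measured beside it, changed by -0.11 (adjusted p 0.399) and 0.11 (adjusted p 0.550) and did not pass. FZD4 read 6.41 in replicates 2 and 3 of both groups, a repeated value that need not be signal.

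The other members of this group gave little signal or no change past the threshold. TSPAN2, known from myelin-forming cells, read 6.05 to 6.09 in the GFP control and 6.03, 6.04 and 5.54 in the arrays labelled GATA3 (adjusted p 0.369), where replicate 3 alone stood apart. TSPAN16 read 5.23 on all 6 arrays, a repeated value that need not be signal. TSPAN8, known from colorectal and pancreatic tumours, stayed under the detection level at 2.20 to 3.68 and was not tested. TSPAN7, TSPAN11 and TSPAN18 read at most 2.16, 2.17 and 2.16 on any array.

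The TspanC8 subgroup escorts the protease ADAM10 out of the endoplasmic reticulum and steers which surface proteins it cuts. Of its 6 members 4 were measured. Of those 2 rose, 0 fell and 2 did not pass (50% called, beside 29.3% of all genes). TSPAN14 rose by both of its probe sets. The dimmer (223314_at) read 7.64, 7.92 and 7.88 in the GFP control and 9.38, 9.44 and 9.32 in the arrays labelled GATA3. The arrays of each group were close together and the groups far apart, with a log2 change of 1.57 (SE 0.09, 2.98-fold, adjusted p 0.000266). The brighter (221002_s_at), which stands for the gene in the counts, read 8.38, 7.83 and 8.52 against 9.45, 9.38 and 9.05. Its control arrays were more scattered and its change smaller, 1.05 (SE 0.21, 2.07-fold, adjusted p 0.0189). Its call was lost without GFP control replicate 1 (adjusted p 0.0536) and without the arrays labelled GATA3 replicate 1 (0.0621) or 2 (0.0681), whereas that of 223314_at held in each such fit (at most 0.00329).

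TSPAN5 rose modestly. It read 10.08, 10.19 and 10.11 in the GFP control and 10.74, 10.61 and 10.36 in the arrays labelled GATA3 (209890_at), a log2 change of 0.45 (SE 0.10, 1.36-fold, adjusted p 0.0292). The groups did not overlap, and replicate 3 lay nearest to the control. Its other probe sets rose by 0.36 (225387_at, adjusted p 0.0209) and 0.24 (225388_at, adjusted p 0.0378). The call of 209890_at was lost without GFP control replicate 1 (adjusted p 0.0967), 2 (0.0767) or 3 (0.0999) and without the array labelled GATA3 replicate 1 (0.0629) or 2 (0.0929), and was firmer without replicate 3 (0.00489). Both other probe sets likewise kept their calls only without replicate 3, of the 6 fits with 1 array left out. TSPAN17 went from a mean of 9.75 to 9.64 (log2 change -0.12, adjusted p 0.248). TSPAN33, also known from activated B cells, went from 5.25 to 5.44 (log2 change 0.19, adjusted p 0.225). Neither passed. TSPAN10 and TSPAN15 stayed under the detection level, at most 3.68 and 2.35.

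ADAM10, the protease these tetraspanins serve, did not pass by any of its 3 tested probe sets on the deposited scale. The brightest (202603_at) read 11.96, 12.13 and 12.08 in the GFP control and 12.06, 11.92 and 11.82 in the arrays labelled GATA3. The groups overlapped, with a log2 change of -0.12 (adjusted p 0.288). Its dimmer probe sets changed by 0.10 (adjusted p 0.365) and 0.21 (adjusted p 0.0908). The latter (214895_s_at) passed after each of 3 other scalings, at 0.28 after centring array medians, 0.24 after quantile normalization and 0.27 after cyclic loess (adjusted p 0.0463, 0.0399 and 0.0342).

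All 10 of the widely expressed tetraspanins of surface patches and vesicles were measured. Of these 2 rose, 2 fell and 6 did not pass (40% called, beside 29.3% of all genes). CD82 fell most. It read 9.71, 9.27 and 9.06 in the GFP control and 7.86, 8.02 and 8.37 in the arrays labelled GATA3 (203904_x_at). The groups did not overlap, and the log2 change was -1.26 (SE 0.21, 2.40-fold lower, adjusted p 0.00979). The suffix of this probe set marks probes that may be shared with other transcripts. The other probe set (228910_at), without that suffix, read 4.92, 6.37 and 6.02 against 3.83, 3.83 and 3.95. It entered the test through the GFP control arrays alone, so it had to differ, and it was at least 3.42-fold lower. The call of 203904_x_at held with any 1 array left out.

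CD9, a partner of integrins and of the precursor of heparin-binding EGF-like growth factor, rose slightly from an already high value. It read 12.84, 12.38 and 12.58 in the GFP control and 13.19, 13.23 and 13.11 in the arrays labelled GATA3 (201005_at). The arrays did not overlap, and the control arrays were the more scattered. The log2 change was 0.58 (SE 0.12, 1.49-fold, adjusted p 0.0187). It did not pass without GFP control replicate 3 (adjusted p 0.0730) or the array labelled GATA3 replicate 1 (0.0596) or 2 (0.0677).

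CD81, a receptor for hepatitis C virus, fell slightly. It read 12.72, 12.76 and 12.78 in the GFP control and 12.51, 12.54 and 12.31 in the arrays labelled GATA3 (200675_at). The groups did not overlap, though the change was small at -0.30 (SE 0.07, 1.23-fold lower, adjusted p 0.0268). The call was lost without GFP control replicate 1 (adjusted p 0.0725), 2 (0.0923) or 3 (0.0954) or the array labelled GATA3 replicate 1 (0.0502). CD9 and CD81, often paired as vesicle markers, thus went opposite ways here by small amounts.

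CD63, a tetraspanin of late endosomes and lysosomes, read 13.63, 13.66 and 13.65 in the GFP control and 13.62, 13.62 and 13.66 in the arrays labelled GATA3. The groups overlapped, and the 95% interval of the change ran from -0.08 to 0.05 (adjusted p 0.682). CD151 read 11.30, 11.20 and 11.15 against 11.17, 11.12 and 11.10, also with overlap. Its change had a 95% interval of -0.22 to 0.04 (adjusted p 0.267).

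TSPAN6, found in endosomes, rose by both probe sets. The brighter (209109_s_at) read 10.39, 10.25 and 10.37 in the GFP control and 11.10, 11.06 and 10.76 in the arrays labelled GATA3. The groups were well apart, with a log2 change of 0.64 (SE 0.10, 1.56-fold, adjusted p 0.00899). The dimmer (209108_at) changed by 0.72 (1.64-fold, adjusted p 0.000597). Both calls held with any 1 array left out.

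The remaining members of this group did not pass by the probe set that stands for the gene. TSPAN3 was the only member whose probe sets differed in call. Probe set 200972_at went from a mean of 12.37 to 12.50, a change of 0.13 (adjusted p 0.106), and 200973_s_at by 0.37 (adjusted p 0.00883), from 10.87 to 11.05 in the GFP control to 11.28 to 11.33 in the arrays labelled GATA3. TSPAN4, a tetraspanin of migrasomes, went from a mean of 11.56 to 11.39 by 209263_x_at and from 10.66 to 10.35 by 209264_s_at (log2 changes -0.17 and -0.32, adjusted p 0.0967 and 0.0874). The former passed without the array labelled GATA3 replicate 3 (adjusted p 0.0349). TSPAN31 is a gene of the amplified region of some sarcomas. By its brighter probe set it read 7.84 to 8.15 in the GFP control and averaged 7.67 in the arrays labelled GATA3 (-0.33, adjusted p 0.0763). The dimmer went from a mean of 6.57 to 6.63 (0.06, adjusted p 0.609). It read 6.61 in GFP control replicate 3 and in the arrays labelled GATA3 replicates 1 and 2, a repeated value that need not be signal. TSPAN9, known from platelets, went from 8.49 to 8.42 (-0.07, adjusted p 0.739), and the change was 0.0785 without the array labelled GATA3 replicate 3.

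The tissue-restricted tetraspanins were not detected. CD37, CD53 and TSPAN32 of leukocytes read at most 2.17, 2.17 and 2.91 on any array. UPK1A and UPK1B of the urothelial plaque, and PRPH2 of photoreceptor discs, read 2.16 on all arrays, and ROM1 at most 2.32. Markers of the same tissues were low as well. Of 7 leukocyte markers with a probe set, 6 never passed the detection level. The exception was CD79A, at 4.08 ± 0.03 in the GFP control and 4.55 ± 0.70 in the arrays labelled GATA3 (SD, n = 3, adjusted p 0.347). None of 4 urothelial and 3 photoreceptor markers passed that level.

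Over single probe sets, 11 of the 30 tested rose, 6 fell and 13 did not pass, beside 25.3% called among all tested probe sets. Of the 27 over the detection level on all 6 arrays, 10 rose and 4 fell. No gene had probe sets called in opposite directions, of 9 with more than 1 tested. The groups did not overlap in 23 of the 30, beside 46% of all tested probe sets. The 23 include 228910_at of CD82 and 230626_at of TSPAN12, which had to differ. They also include the probe set of TSPAN1, which met the filter through the arrays labelled GATA3 alone. The number of rising probe sets was 7 without GFP control replicate 1 or 3 and 6 without the array labelled GATA3 replicate 1 or 2.

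**Figure D2:**
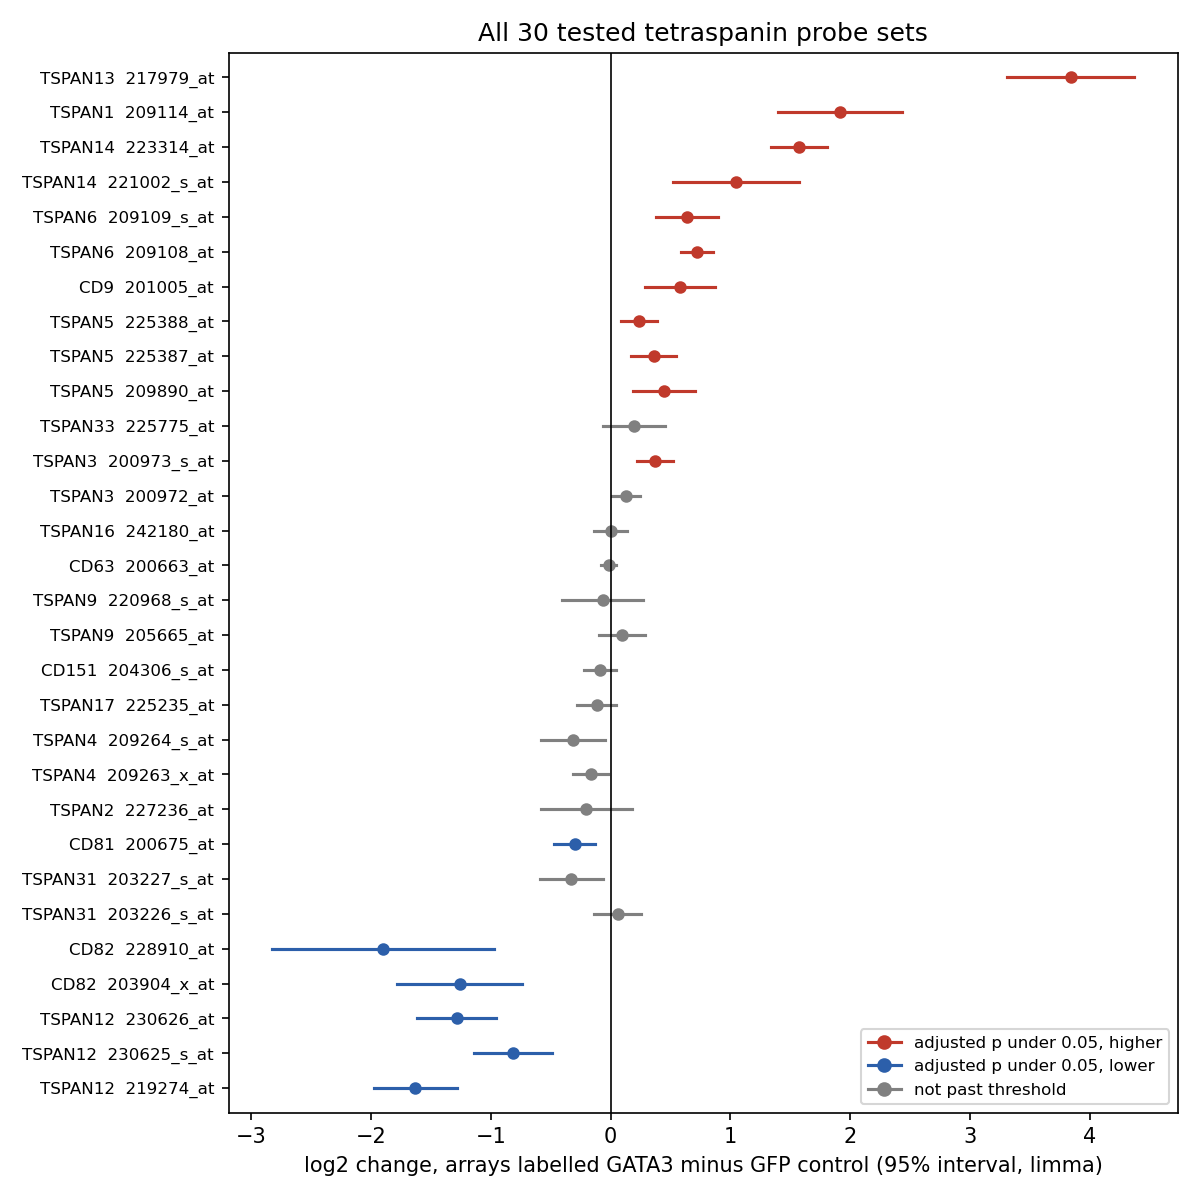
Log2 change of all 30 tested tetraspanin probe sets (x axis, arrays labelled GATA3 minus GFP control), grouped by gene (y axis). Points are limma estimates and lines their 95% intervals, red where higher, blue where lower and grey where not past the threshold. The 3 probe sets of TSPAN12 and both of CD82 lie to the left of 0, and those of TSPAN13, TSPAN1, TSPAN14, TSPAN6, CD9 and TSPAN5 to the right.

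**Figure D3:**
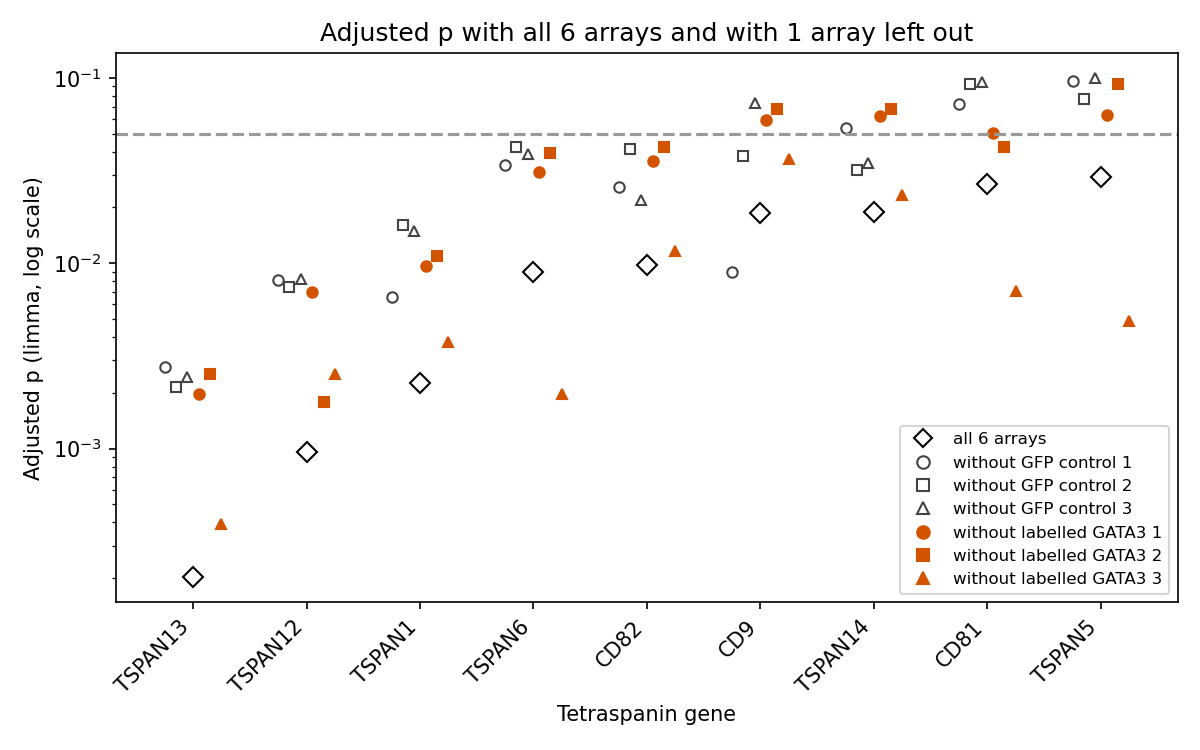
Adjusted p of the 9 changed tetraspanins (x axis) on a log axis (y axis), from all 6 arrays (diamonds) and from the 6 fits with 1 array left out (grey open symbols, a GFP control array; orange filled symbols, an array labelled GATA3). The dashed line is 0.05. TSPAN13, TSPAN12, TSPAN6 and CD82 stay under it in all 6 fits, and CD9, TSPAN14, CD81 and TSPAN5 do not. TSPAN1 is drawn as well, but it met the filter through the arrays labelled GATA3 alone. The fits keep that filter, so its points are no support for a change.

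A list of 42 known partners of tetraspanins and genes of vesicle formation was set beside the members. Of 31 measured partners, 10 rose, 4 fell and 17 did not pass (45.2% called, beside 29.3% of all genes), with a median log2 change of 0.11. Of the 30 over the detection level on all arrays, 8 rose and 4 fell when only such probe sets were tested. Rising partners numbered 6 without GFP control replicate 1 and 6 without the array labelled GATA3 replicate 2. Without the array labelled GATA3 replicate 3, CLDN7 and PI4K2A also rose (adjusted p 0.00506 and 0.0315). In that fit TSG101 also fell (adjusted p 0.0426), and SDCBP did not pass (adjusted p 0.0838). Of 7 measured integrins, 4 were higher, 1 lower and 2 not past the threshold (71.4% called, beside 29.3% of all genes). ITGA2, the collagen-binding integrin chain, rose by 2.53 on the log2 scale (5.77-fold, adjusted p 8.6e-05). ITGA5, the fibronectin-binding chain, fell by 1.66 (3.16-fold lower, adjusted p 0.000862). The laminin-binding chains ITGA6 and ITGB4, partners of CD151, rose by 0.41 (adjusted p 0.0183) and 0.59 (adjusted p 0.0231), and both calls were lost in 4 of the 6 fits with 1 array left out. The dimmer ITGA6 probe set (215177_s_at) kept its call in all 6. ITGA3, the other partner of CD151, changed by -0.10 (adjusted p 0.298).

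Among surface partners, EPCAM rose by 2.16 (4.46-fold, adjusted p 8.82e-05). HBEGF, the growth factor precursor that CD9 binds, read 11.12, 11.04 and 11.10 in the GFP control and 12.18, 12.14 and 12.23 in the arrays labelled GATA3. Like CD9 it rose, 2.14-fold (adjusted p 5.44e-05). CDH1 was over the detection level in the arrays labelled GATA3 alone, so it had to differ; it was at least 10.5-fold higher. IFITM1, which associates with CD81 on lymphocytes, fell by 3.01 on the log2 scale, from 8.85 to 9.03 in the GFP control to 5.82 to 6.03 in the arrays labelled GATA3 (8.04-fold lower, adjusted p 2.93e-05). MMP14, a membrane-bound metalloproteinase that tetraspanins hold at the surface, fell 2.92-fold (adjusted p 0.00966). Of 5 genes of vesicle formation, 1 rose and 4 did not pass (20% called, beside 29.3% of all genes). The gene that rose was SDCBP, which encodes syntenin, at 0.15 (adjusted p 0.0482). Its call was lost after centring array medians (adjusted p 0.112). Of the 6 fits with 1 array left out, it stayed past the threshold only without GFP control replicate 3. All calls given here for ITGA2, ITGA5, EPCAM, HBEGF, IFITM1 and MMP14 held in each of those fits.

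**Figure D4:**
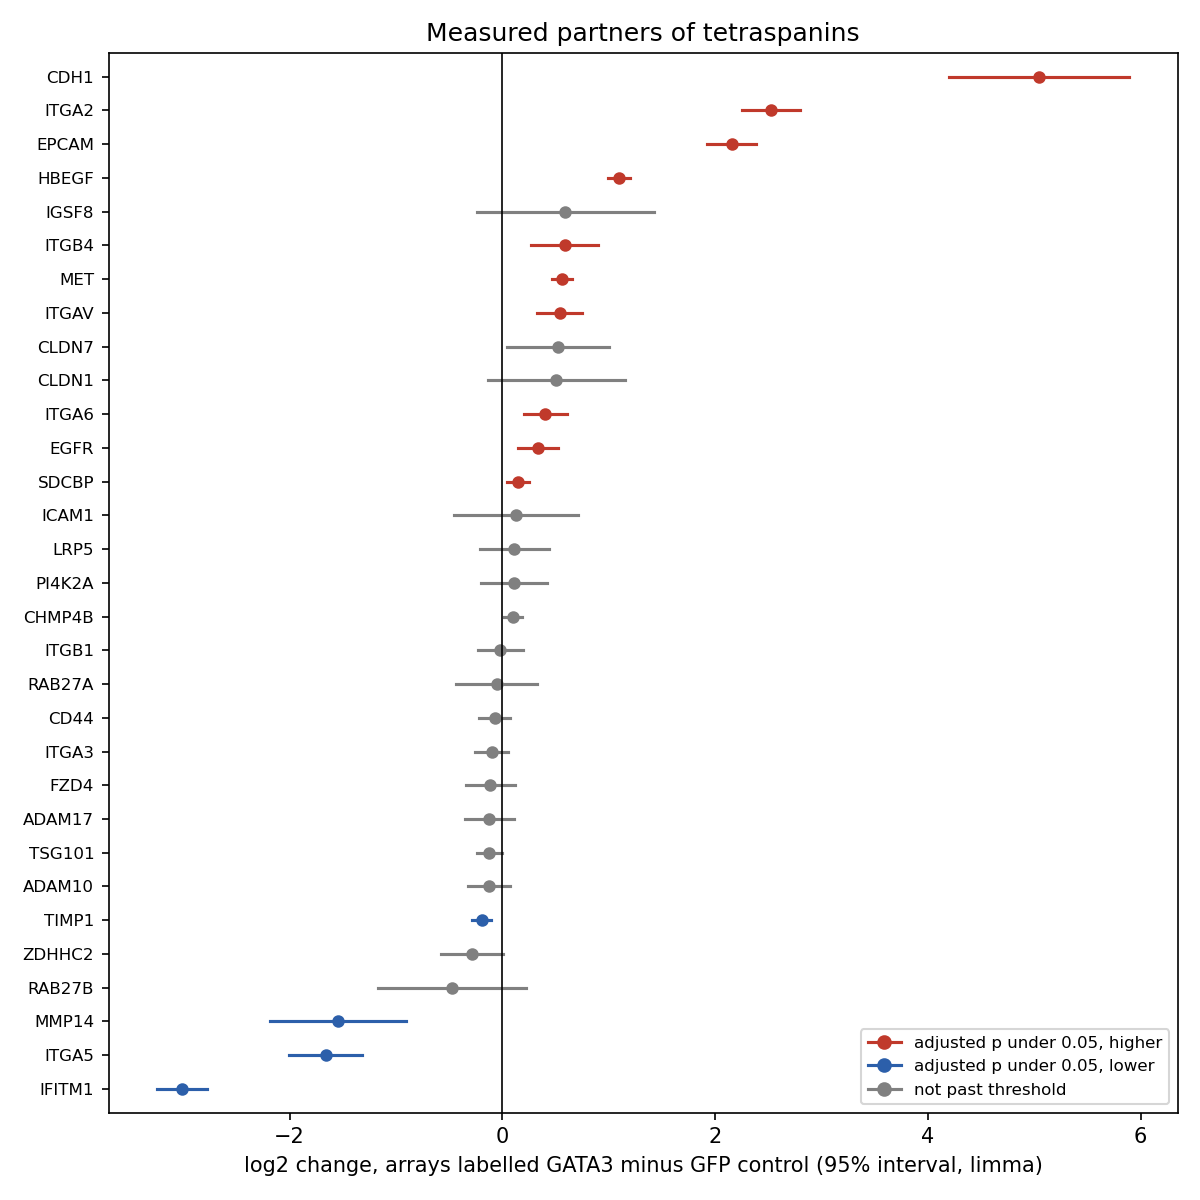
Log2 change of the 31 measured partners of tetraspanins (y axis), arrays labelled GATA3 minus GFP control (x axis), with 1 probe set a gene. Points are limma estimates and lines 95% intervals, coloured by call. CDH1, ITGA2, EPCAM and HBEGF are farthest to the right and IFITM1, ITGA5 and MMP14 farthest to the left, while ADAM10, ADAM17 and ITGB1 lie at 0 within their intervals.

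The changed members lie on 7 chromosomes, and their nearest protein-coding genes were taken from the RefSeq order (2 on each side). Of 16 such neighbours tested, 3 rose, 6 fell and 7 did not pass, beside 29.3% called among all genes. A neighbour moved the same way as its member in 6 cases and the opposite way in 3. Without GFP control replicate 1, 2 or 3 these were 3 and 2 cases, and without the arrays labelled GATA3 replicate 1, 2 or 3 they were 5 and 2, 4 and 3, and 7 and 3. TSPAN13 stands between BZW2, which changed by -0.23 (adjusted p 0.0250), and AGR2, which changed by -2.63 (adjusted p 0.000566). The call of BZW2 was lost without any 1 of the GFP control arrays (adjusted p 0.0721 to 0.0858) and without the array labelled GATA3 replicate 1 (0.0721), and after centring array medians (0.142). CPED1, 2 places from TSPAN12, fell by 2.80 (adjusted p 8.68e-05), and SYTL4, 2 places from TSPAN6, rose by 2.90 (adjusted p 0.000402).

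**Figure D5:**
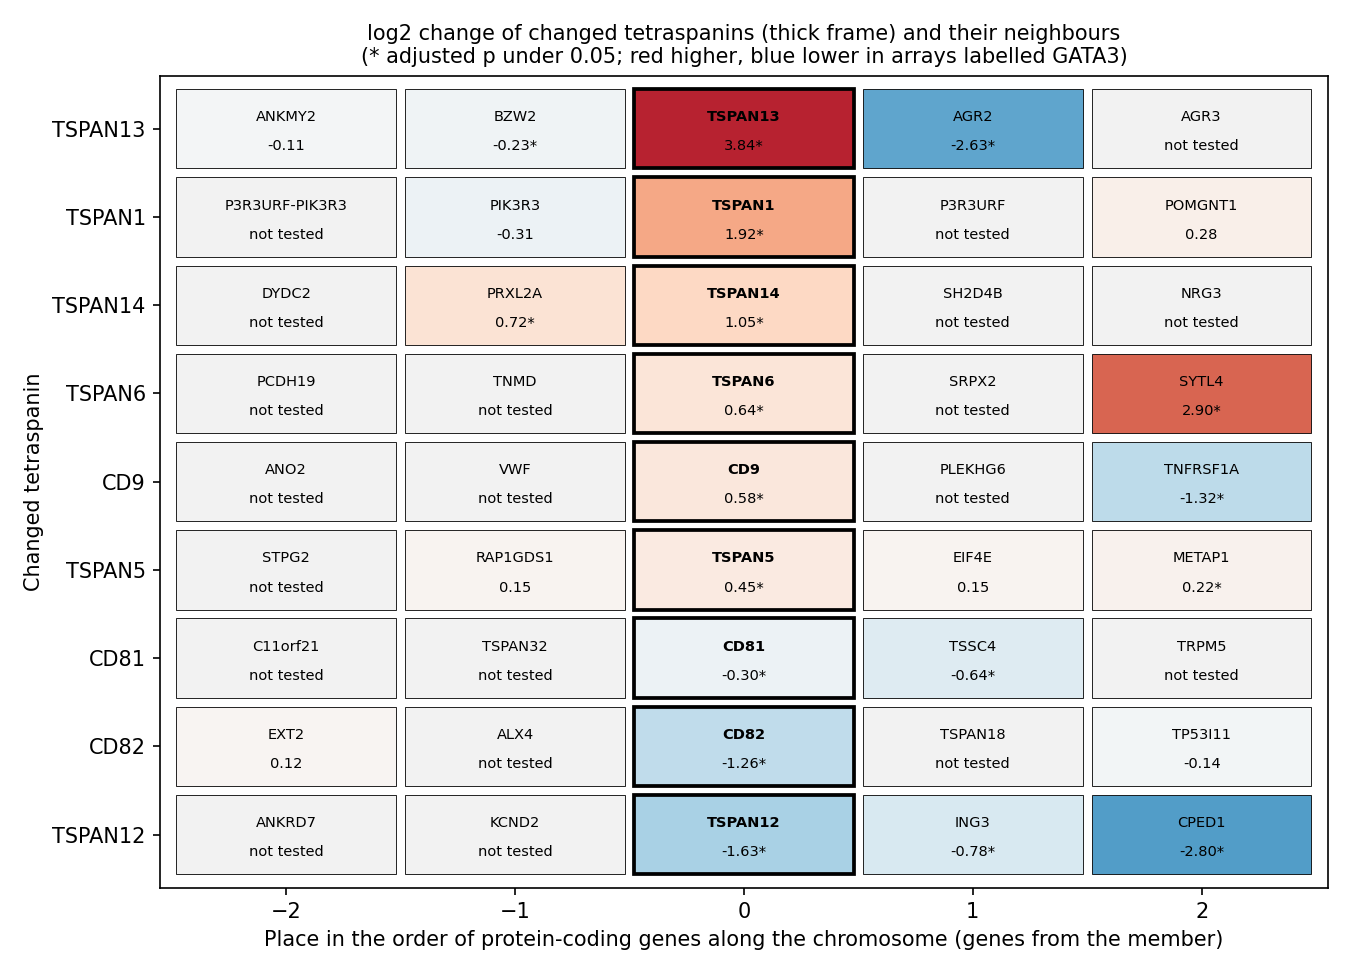
Log2 change of the 9 changed tetraspanins (thick frames) and of the 2 protein-coding genes on each side of them in chromosomal order (x axis, places from the member, not to scale in distance). Numbers are log2 changes, stars mark an adjusted p under 0.05, and grey cells were not tested. TSPAN13 at 3.84 stands next to AGR2 at -2.63, and TSPAN12 at -1.63 has ING3 (-0.78, a call lost in 4 of the 6 fits with 1 array left out) and CPED1 (-2.80) beside it.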

How the data were processed

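Total RNA (1 ug a sample) was labelled with biotin and hybridised to 6 single-colour Affymetrix arrays, per the labels' protocols. The deposited values, read as log2, are per probe set and were made by the authors with GCRMA, per the submitters' processing notes. Its version, and the scale, are not given in the sources used here, and the log2 reading rests on the range of the values. GCRMA sets many probe sets to a floor (2.16 here), and some repeat a higher value of their own. No scaling was added. Leaving out 62 control probe sets, 23785 were tested by the filter given in the report. The groups were compared with limma 3.58.1 (R 4.3.3, lmFit and eBayes with an intensity trend, no covariates), two-sided, with Benjamini-Hochberg adjustment over all tested probe sets. A fold is 2 to the power of the difference of group means. If no array of the dimmer group exceeded 4, the brighter mean was set against 4 and the fold written as "at least". The number of arrays limits the precision. On simulated data 28.7%, 65% and 92.5% of probe sets changed by 0.5, 1 and 2 on the log2 scale were recovered, among 23785. There 5.08% of calls were false. Those data held 80, 80 and 40 changed probe sets of these sizes, a far smaller share than the 25.3% called here. Their spreads were also shuffled over probe sets, so these rates need not hold for the real arrays.

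Array values were given for members that passed with a log2 change of at least 0.5 in size and for CD9, CD63, CD81, CD82 and CD151. A member whose probe sets differed in call was named with all of them. Array values of TSPAN2 and TSPAN5 were added after they were seen. Partners were named where they passed with a change of at least 1 in size, beside ADAM10. ITGA3, ITGA6, ITGB4, SDCBP, FZD4 and LRP5, and the neighbours, were named after their values were seen. The members and lists were chosen with earlier results of these data known. Alternatives were 3 scalings, 3 filters, no trend, array weights, the replicate block, each array left out, the mean of all tested probe sets and the suffix _at alone. The replicate numbers were not taken as pairs.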

Additional observations from a re-analysis of the deposited data

How the results depend on the processing

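The 9 changed members kept their calls, with 0 others added, after centring array medians, quantile normalization or cyclic loess, with the filter at 5, without an intensity trend and with the suffix _at alone. Over 4 in all 6 arrays, TSPAN1 was no longer tested and the 8 others kept their calls. Without a filter on low values 3 members rose (TSPAN14, CD9 and TSPAN5 were lost, and CD81 among the falls), 7 probe sets of members and 6 partners rose, and 1767 of all probe sets were lower. With array weights, whose fit stopped before convergence, 5 members were lower, and 5195 probe sets were higher and 6642 lower. With the mean of all tested probe sets TSPAN3 and TSPAN4 also passed, and with the suffix _at alone 6 partners rose. With 1 array left out, 3 to 6 members were higher and 2 to 4 lower, 6 to 11 member probe sets were higher, 6 to 11 partners were higher, and 1796 to 3581 of all probe sets were higher and 1801 to 3752 lower. TSPAN9 changed sign after centring medians (0.0114), quantile normalization (0.0106), cyclic loess (0.0309), array weights (0.107), the mean of probe sets (0.0143) and the suffix _at alone (0.0953), and ran from -0.158 to 0.0785 with 1 array left out. CD63 changed sign after centring medians (0.0633). Neither passed in any fit.

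The replicate numbers are shared between the groups, but same-numbered arrays did not deviate together (r of -0.135, 0.159 and -0.109), so they were not used as pairs, and not every array correlated best with its own number. With the replicate block 1 member was lower and 2106 of all probe sets, and TSPAN14, TSPAN5, CD81 and CD82 did not pass (adjusted p 0.0609, 0.0619, 0.0688 and 0.0521). It changed no other call of a member. Signal near the detection level limits TSPAN1 and the dimmer probe sets of TSPAN12 and CD82.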

Other observations

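Other small proteins with the same number of membrane passes, which are not tetraspanins, were looked at after the values of the members had been seen. TM4SF1, the L6 antigen of epithelial tumours, averaged 13.21 ± 0.06 in control cells and 13.20 ± 0.06 in the arrays labelled GATA3 (209386_at, SD, n = 3), and the 95% interval of its change ran from -0.13 to 0.11 (adjusted p 0.918). TM4SF4, TM4SF5, TM4SF18 and TM4SF20 were not over the detection level on any array. In the epithelial membrane protein family EMP1 fell by all 4 of its tested probe sets. The brightest (201324_at) went from 12.29 ± 0.12 to 11.13 ± 0.04 (SD, n = 3), 2.23-fold lower (adjusted p 0.000219), and 213895_at was 7.19-fold lower (adjusted p 0.000172). EMP3 was 1.16-fold lower (adjusted p 0.0160), a call lost in 4 of the 6 fits with 1 array left out (adjusted p up to 0.0649 without GFP control replicate 2) and after centring array medians (adjusted p 0.355). EMP2 did not pass by its brightest probe set (204975_at, adjusted p 0.173) but was 1.79-fold lower by 225079_at (adjusted p 0.00306).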
